A study of Arabidopsis thaliana with 12 samples.

Results

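The mock roots are the mock-treated wild type roots of the series, and they give the transcriptome of the Arabidopsis thaliana seedling root without an added auxin compound. Members were all libraries whose title names wild type mock, which were 3 of the 12 libraries, and all 20814 genes of the deposited table were read in them. Seedlings were grown at 22 °C on MS medium of 0.5 strength for 4 days, moved to fresh medium for 3 more days, and their roots were collected at 7 days for sequencing of poly(A) RNA. By their titles, neither BiAux nor indole-3-acetic acid was given to this group. The paper gives mock as DMSO in other experiments of the study. Nothing in the labels says whether the 3 libraries came from separate cultures, so the spread given here is the spread between libraries. The treatment field of mock 3 names 5 µM BiAux, against its title, and that of mock 2 carries another replicate number. Groups were taken from the titles, and the main counts are given with and without mock 3.

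The seedling root is built of concentric cell layers around a vascular cylinder. The epidermis holds root hair and non-hair cells, the endodermis seals the wall space with the Casparian strip and later with suberin, and xylem and phloem carry water, minerals and sugars. A stem cell niche and a zone of dividing cells lie behind the root cap. A root sample of whole organs mixes all of these, and in such a sample fewer cells of a type and less RNA per cell cannot be told apart. The cell type genes used here are markers known from the Arabidopsis root.

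Levels are given as CPM, which is the count of a gene in each 1000000 counts of its library. A long gene collects more reads from the same number of transcripts, so levels of different genes were set against each other as CPM per kb of exon length. The libraries held 32413978, 32720463 and 32459739 normalised counts, and these totals are not the reads sequenced, which cannot be read from normalised values. The highest over the lowest of the 3 libraries, after adding 0.5 CPM, served as the measure of spread, over 15299 genes whose mean reached 5 CPM. Of these, 362 (2.37%) differed by 2-fold or more among the mock libraries. The number was 183 without mock 3 and 8 without mock 1. With 1 library fewer the ratio of a gene cannot rise, so a lower number was largely built in.

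The root expressed most of the genes in the table. The authors had filtered the table, so such shares are of the genes kept in it and not of all genes of the genome. In total 18168 genes (87.3%) reached 1 CPM in all 3 libraries, and 18211 did so in mock 1 and mock 2 without mock 3. With fewer libraries to pass, such a number cannot fall. The median gene stood at 16.5 CPM, with quartiles of 4.53 and 44.6 CPM. At the upper end 1845 genes reached 100 CPM and 51 genes reached 1000 CPM in every library. The table covered 20494 of the 27444 nuclear protein-coding genes of the annotation (74.7%), and 120 more rows were of the plastid and mitochondrial genomes, which took between 0.469% and 0.651% of the counts.

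A small number of genes filled much of each library. The 10 most abundant genes held 3.86% ± 0.174 (SD, n = 3) of the counts, and the 100 most abundant held 16.6% in mock 1, 14.5% in mock 2 and 14.4% in mock 3. The first 1000 genes held 44.1% ± 1.69 (SD, n = 3). Mock 1 was the most concentrated library, with 50% of its counts in 1220 genes, against 1399 in mock 2 and 1463 in mock 3. Of the 100 most abundant genes, 85 were among the first 100 of every library.

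The gene with most counts was PYK10 (BGLU23, AT3G09260), a beta-glucosidase that fills the ER bodies of root cells, spindle-shaped compartments of the endoplasmic reticulum linked to defence. PYK10 stood at 11694 CPM in mock 1, 10275 CPM in mock 2 and 10664 CPM in mock 3, and it was also first per length with 6023 CPM per kb. The next by share of counts was AT4G11320, a papain family cysteine protease, with 3624, 3533 and 4385 CPM. DR4 (drought-repressed 4, AT1G73330) had 3597, 3167 and 3909 CPM and was second per length at 3205 CPM per kb. For these genes the libraries lay close together, with a highest over lowest of 1.14 for PYK10, 1.24 for AT4G11320 and 1.23 for DR4.

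Water channels were frequent among the most abundant transcripts. TIP1;2 (AT3G26520), an aquaporin of the vacuole membrane, had 5140, 3130 and 2600 CPM in mock 1, 2 and 3. TIP1;1 (AT2G36830), its close relative, had 4337, 2535 and 2029 CPM. The plasma membrane aquaporins PIP2;1 and PIP1;2 had means of 2466 ± 848 and 2213 ± 700 CPM (SD, n = 3). Aquaporins made up 4 of the 20 most abundant genes by CPM and 7 of 20 by CPM per kb, and in the first 100 by CPM per kb there were 10 of them beside 12 ribosomal protein genes. All of these named genes were highest in mock 1.

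Other abundant genes included enzymes of methyl group metabolism and parts of protein synthesis. ATMS1 (AT5G17920), a cobalamin-independent methionine synthase, had 2622, 3411 and 2709 CPM, and HOG1 (AT4G13940), which hydrolyses S-adenosyl-homocysteine, had 2433, 2811 and 2545 CPM. SAMDC (AT3G02470), the decarboxylase that leads from S-adenosylmethionine to polyamines, had 1712, 1936 and 1922 CPM, and SAM1 (AT1G02500), an S-adenosylmethionine synthetase, stood at 1610 ± 42.4 CPM (SD, n = 3). The chaperone HSC70-1 had 2090, 3002 and 2793 CPM and the elongation factor gene AT5G60390 had 2344, 2872 and 2356 CPM, both lowest in mock 1. The row ATMG00020 of the mitochondrial genome was also among the first 20, with 2703, 2674 and 3773 CPM, and was highest in mock 3. The annotation used gave no product for this row, so its kind of RNA was not read and it may not be a messenger RNA.

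Further genes of this group served energy and housekeeping functions. AAC1, the mitochondrial ADP/ATP carrier, had 2250, 2553 and 1968 CPM, and UBQ3, a polyubiquitin gene, had 2226, 1733 and 1880 CPM. MLP34, of the major latex protein family, had 2556, 2130 and 2633 CPM, and the extensin-like gene AT2G43150 had 2086, 1752 and 1744 CPM. The order per length brought up short transcripts. MLP328 was in place 5 with 1808 CPM per kb and TCTP, a growth-related protein, in place 7 with 1650 CPM per kb, and 12 of the first 20 genes were shared between both orders.

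**Figure D1:**
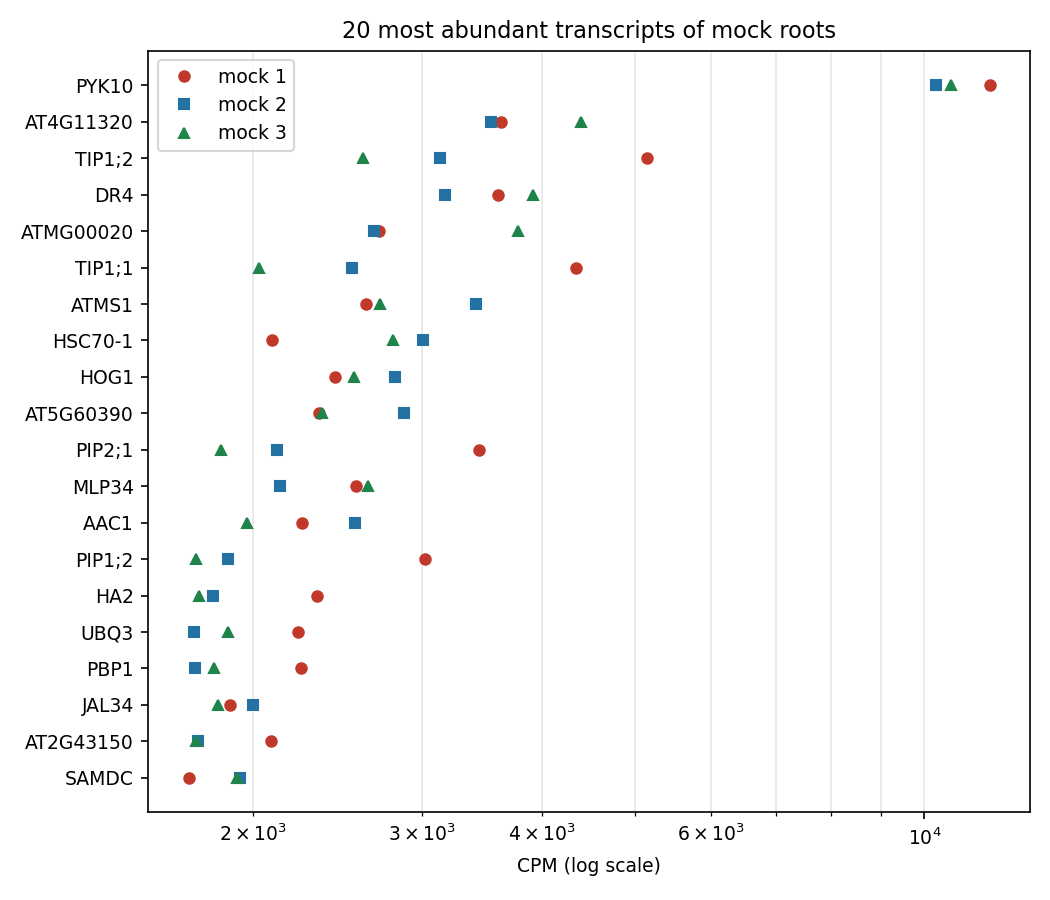
CPM on a log scale (x axis) of the 20 genes with the highest mean CPM (y axis), with 1 point for each of the 3 mock libraries. PYK10 stands apart at 10275 to 11694 CPM, and the 4 aquaporins (TIP1;2, TIP1;1, PIP2;1 and PIP1;2) are highest in mock 1.

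Genes that work with PYK10 were also abundant. PBP1 (AT3G16420), a jacalin-type lectin that binds PYK10, had 2240, 1739 and 1821 CPM, and the lectin genes JAL33 and JAL34 had means of 1098 ± 133 and 1908 ± 82.8 CPM. NAI2 (AT3G15950), needed to form ER bodies, had 1336, 1283 and 1344 CPM at a length-scaled level of 507 CPM per kb. NAI1 (AT2G22770), the transcription factor that drives these genes, had 106, 102 and 114 CPM, or 69.4 CPM per kb. All 11 measured genes of the ER body list were at 10 CPM or more in every library, against 58.0% of all genes in the table. Their sum was 18700, 17125 and 17558 CPM, and none of the 11 differed by 2-fold or more between libraries (2.37% of all tested genes did). TSA1, a NAI2 relative, was the lowest of the 11 per length at 5.04 CPM per kb.

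Some of the most abundant genes were neighbours on the chromosome. Among the first 100 genes, 7 fell into 3 blocks in which consecutive members lay less than 10000 bases apart. PBP1, JAL33 and JAL34 span chr3:5579290-5595912 (TAIR10.1 coordinates) and together held 5310, 4682 and 4827 CPM. The beta-glucosidase genes BGLU21 and BGLU22 span chr1:24699868-24709996 and held 2259, 2805 and 2549 CPM. MLP328 and MLP329, which encode proteins of the major latex protein family, span chr2:235925-240687 and held 2942, 1917 and 2314 CPM. The blocks hold gene copies of 1 family each, so reads may be split between near-identical members.

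Among the annotation classes summed here, which do not cover all functions, ribosomal proteins took the largest share of the counts. The 313 genes whose RefSeq note names a structural constituent of the ribosome took 5.03%, 5.99% and 5.87% of the counts in mock 1, 2 and 3. Of these, 178 are placed in the cytosolic ribosome by their RefSeq note and took 3.68% ± 0.310 (SD, n = 3). No single gene dominated the class, since its most abundant member, the S8e family gene AT5G20290, held 1.82% of the class total with 896, 1079 and 1094 CPM. The 178 cytosolic genes had a median of 209 CPM per kb and a median exon length of 905.5 bases. None of the 289 ribosomal protein genes over the filter differed by 2-fold or more between libraries, against 2.37% of all genes, and mock 1 was the lowest library for the class total.

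Ribosomal protein genes of Arabidopsis are known for short promoter motifs that they share, namely site II elements bound by TCP factors and the telo-box. The 250 bases before the annotated start of 20694 nuclear genes were searched on both strands for site II (TGGGCC or TGGGCT) and for the telo-box (AAACCCTA), and for TATAAA. Site II was present in 67.4% of the 178 cytosolic ribosomal protein promoters, against 21.7% of all promoters. The telo-box was present in 19.7%, against 3.57% of all, and both motifs together in 15.7%, against 1.37%. TATAAA was present in 50%, against 46.6% of all promoters. Site II matches can overlap each other on opposite strands and a match is a description of the letters and not evidence of binding.

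The sequences were taken by level. They are of the 4 cytosolic ribosomal protein genes with most counts, among the 178 placed there by their RefSeq note, and of PYK10 and AT4G11320, the most abundant genes of all. In the bases shown each of the 4 carries at least 1 site II, and PYK10 and AT4G11320 carry none. TIP1;2 and DR4, the next by level, are not shown and also carried no site II. Each line gives the 200 bases that end 1 base before the annotated start (NCBI RefSeq, TAIR10.1), 5′ to 3′ on the strand of the gene. Capitals mark site II or its reverse complement, the telo-box or its reverse complement, and TATAAA on the strand of the gene.
AT2G41840, S5 family ribosomal protein (chr2:17461540-17461739, minus strand): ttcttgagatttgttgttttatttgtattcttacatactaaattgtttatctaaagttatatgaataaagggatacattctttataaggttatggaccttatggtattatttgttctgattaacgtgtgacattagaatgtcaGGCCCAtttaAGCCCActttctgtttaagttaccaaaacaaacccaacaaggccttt
AT3G04840, ribosomal protein S3Ae (chr3:1329371-1329570, plus strand): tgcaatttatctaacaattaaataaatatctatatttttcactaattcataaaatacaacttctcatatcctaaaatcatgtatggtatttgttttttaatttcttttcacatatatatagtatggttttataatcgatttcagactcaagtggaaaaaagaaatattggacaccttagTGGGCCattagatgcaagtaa
EMB3010, ribosomal protein S6e (chr5:3260255-3260454, minus strand): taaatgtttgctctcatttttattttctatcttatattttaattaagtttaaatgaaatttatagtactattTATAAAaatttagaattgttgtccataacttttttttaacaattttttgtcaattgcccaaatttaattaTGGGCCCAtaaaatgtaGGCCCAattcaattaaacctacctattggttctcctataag
emb2171, L14p/L23e family ribosomal protein (chr3:1167050-1167249, plus strand): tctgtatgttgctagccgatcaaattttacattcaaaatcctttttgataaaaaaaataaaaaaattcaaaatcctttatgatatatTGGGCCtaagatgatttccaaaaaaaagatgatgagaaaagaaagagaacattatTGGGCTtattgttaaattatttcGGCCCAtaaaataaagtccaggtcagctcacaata
PYK10, beta-glucosidase (chr3:2843782-2843981, minus strand): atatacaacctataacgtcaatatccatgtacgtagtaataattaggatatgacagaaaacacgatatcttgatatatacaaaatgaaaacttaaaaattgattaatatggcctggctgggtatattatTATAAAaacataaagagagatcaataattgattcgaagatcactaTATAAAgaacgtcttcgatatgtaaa
AT4G11320, papain family cysteine protease (chr4:6886966-6887165, plus strand): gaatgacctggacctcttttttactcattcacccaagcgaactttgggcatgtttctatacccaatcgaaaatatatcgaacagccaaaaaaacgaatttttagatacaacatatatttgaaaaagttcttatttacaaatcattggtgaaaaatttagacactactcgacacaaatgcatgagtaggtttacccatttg

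The 4 ribosomal genes had similar levels in the 3 libraries. AT2G41840 had 689, 816 and 814 CPM with 2 site II matches in the sequence shown. AT3G04840 had 574, 715 and 657 CPM with 1 match. EMB3010 had 529, 665 and 642 CPM with 3 matches, of which the first and second overlap as a palindrome, and 1 TATAAA. The gene emb2171 had 553, 640 and 600 CPM, also with 3 matches. All of them were lowest in mock 1. PYK10 held TATAAA at 2 places in its 200 bases and no site II, and AT4G11320 held none of the motifs searched.

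Site II of the ribosomal protein genes was concentrated near the start. In bins of 25 bases, 27.0% of the 178 promoters had a match within the last 25 bases, 31.5% in the next bin and 30.3% in the one after, against 3.36%, 5.56% and 7.33% of all promoters. From 150 bases upstream outwards both groups were at 2.38% or less. The telo-box was found in 10.11% of the ribosomal promoters within the last 25 bases, against 0.507% of all. By level in the root, site II was in 16.1% of promoters in the lowest decile of genes by CPM, in 23.4% in decile 4 and in 23.9% in the highest decile, and it was in 17 of the promoters of the 100 most abundant genes.

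**Figure D2:**
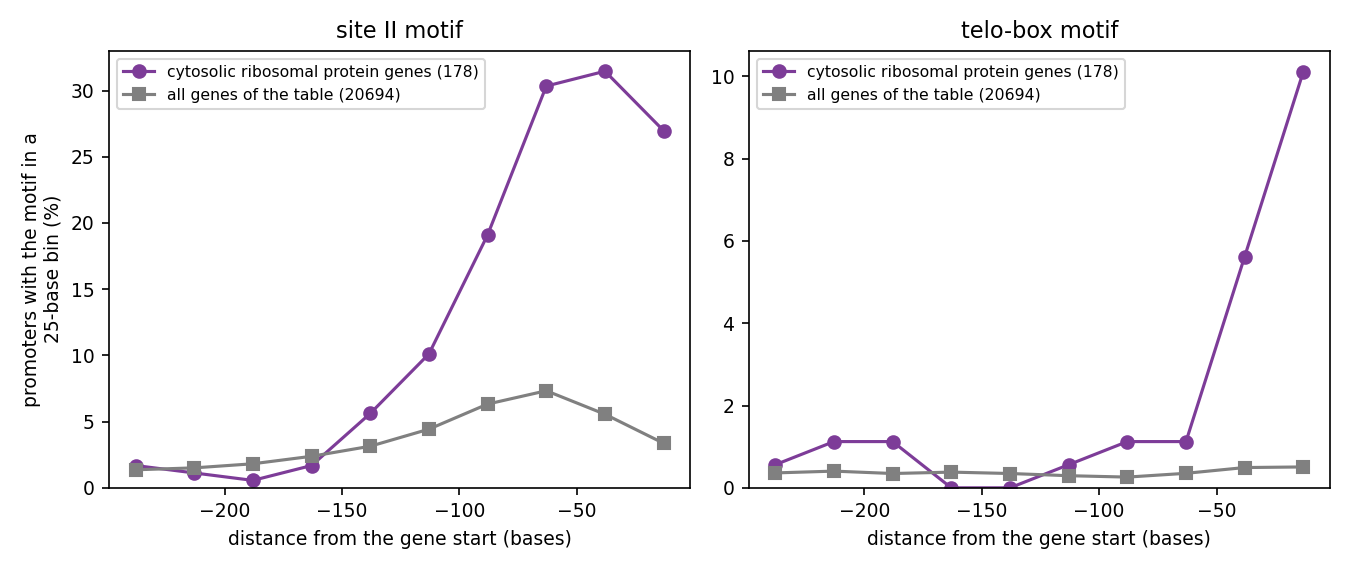
Share of promoters (y axis, %) with a site II (left) or telo-box (right) match in each bin of 25 bases, against the distance of the bin's centre from the gene start (x axis, bases). The 178 cytosolic ribosomal protein genes reach 31.5% for site II and 10.11% for the telo-box near the start, while all 20694 genes stay at 7.33% or less.

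Other classes with many counts included water channels, transcription factors, glucosidases, wall proteins and peroxidases. The 26 aquaporin genes of the class took 2.98%, 1.84% and 1.59% of the counts, the 33 beta-glucosidases 1.46% ± 0.0706 (SD, n = 3), of which PYK10 was 74.6%, and the 155 extensin and proline-rich or hydroxyproline-rich protein genes 1.39% ± 0.160. The 70 peroxidase-annotated genes took 1.24% ± 0.190, and DOX1, an alpha-dioxygenase that the annotation places in this superfamily, was the most abundant of them at 1785 ± 278 CPM. Glutathione S-transferases took 0.807% ± 0.0989, with GSTF8, GSTU19 and GSTF9 at means of 1736, 1359 and 1268 CPM. Cytochrome P450 genes took 0.730% ± 0.0664. The 688 genes annotated as transcription factors took 1.76% ± 0.0961 in all, and none of them was among the 100 most abundant genes.

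The most abundant cytochrome P450 genes belonged to specialised metabolism. CYP705A5 and CYP708A2, which modify the root triterpene thalianol, had 1250, 808 and 897 CPM and 598, 503 and 567 CPM. CYP83B1, which commits indole-3-acetaldoxime to indole glucosinolates, had 589, 581 and 620 CPM. CYP79B2 and CYP79B3, which make indole-3-acetaldoxime from tryptophan, had 302, 333 and 376 CPM and 384, 447 and 521 CPM. The thalianol genes were highest in mock 1 and both CYP79B genes were highest in mock 3, with a highest over lowest of 1.55 for CYP705A5 and 1.36 for CYP79B3.

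**Figure D3:**
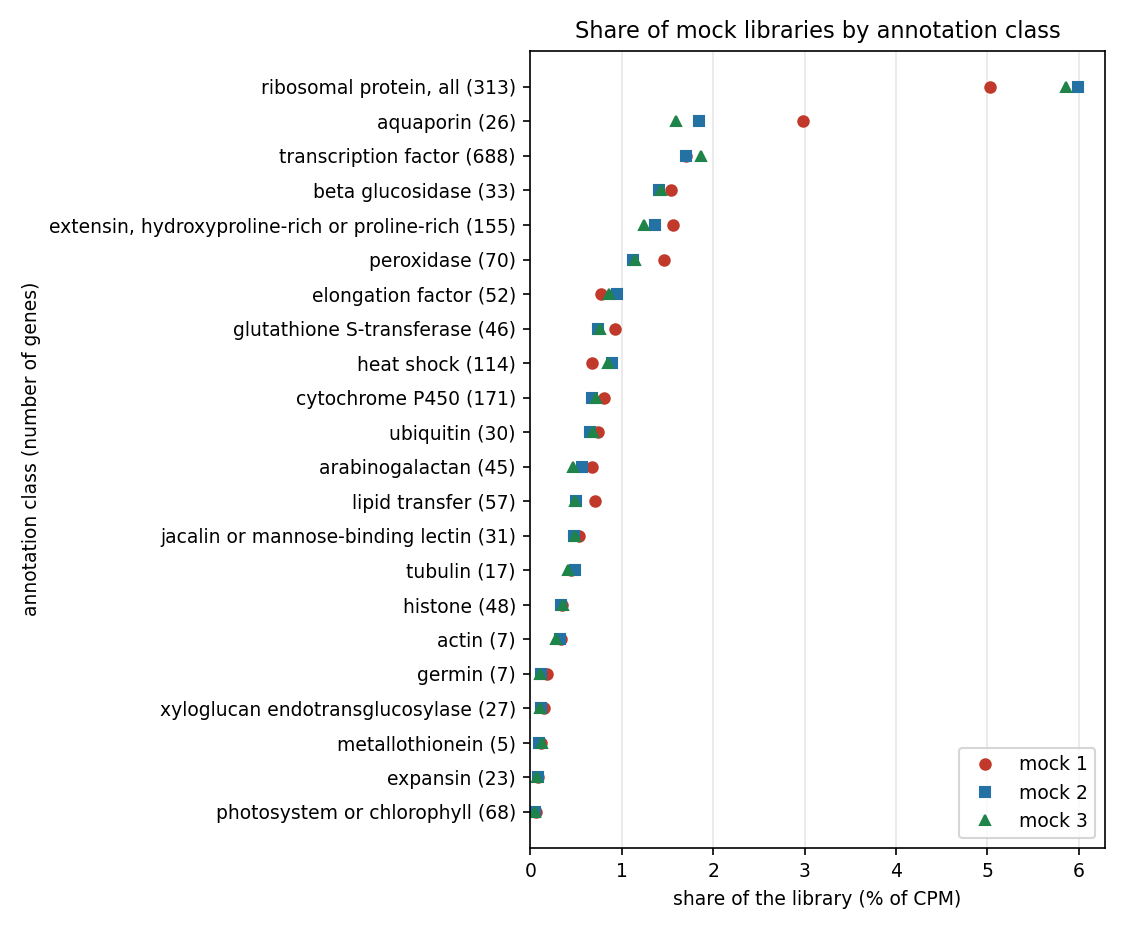
Share of all counts (x axis, % of CPM) held by each annotation class (y axis, number of genes in brackets), with 1 point for each mock library. Ribosomal proteins lead at 5.03% to 5.99%, and aquaporins show the widest gap, with mock 1 at 2.98% and the other libraries at 1.84% and 1.59%.

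Among the 688 genes of the transcription factor class, which was set by key words and leaves out some factors such as IAA9, the counts were spread over many genes. The largest share of the class was that of AT1G74840, a homeodomain-like gene, with 368, 326 and 355 CPM, followed by HMGB2, a high mobility group protein of chromatin, with 354, 303 and 372 CPM. The bZIP factor genes bZIP2 and TGA1 had means of 339 ± 24.2 and 325 ± 28.1 CPM (SD, n = 3). TGA1 is known for a role in nitrate and defence responses. BTF3 had 266, 312 and 308 CPM and was first of these per length with 368 CPM per kb. IAA16, an auxin response repressor, was sixth with 322, 253 and 291 CPM, and RAP2.12, an oxygen-sensing ethylene response factor, was seventh with 259, 232 and 242 CPM. None of these differed by more than 1.27-fold between libraries, the value of IAA16.

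Markers of other organs were low or outside the table. Of the 12 seed genes listed, 3 were in the table and none reached 1 CPM in all 3 libraries. The other tissue list for shoot and green tissue had 10 of 21 genes in the table, with a sum of 136, 114 and 118 CPM. The defining shoot meristem and stomatal genes STM, CLV3, WUS, MUTE and FAMA were not among the genes of the table, and SPCH, which starts the stomatal lineage, stood at 0.185, 0.0306 and 0.123 CPM. Some photosynthetic transcripts were present, such as PSBO1 with 58.0, 40.6 and 41.5 CPM and RBCS1A, the small subunit of Rubisco, with 16.66, 20.08 and 18.82 CPM. The 68 genes annotated to photosystems or chlorophyll together took 0.0553% ± 0.00596 of the counts.

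**Figure D4:**
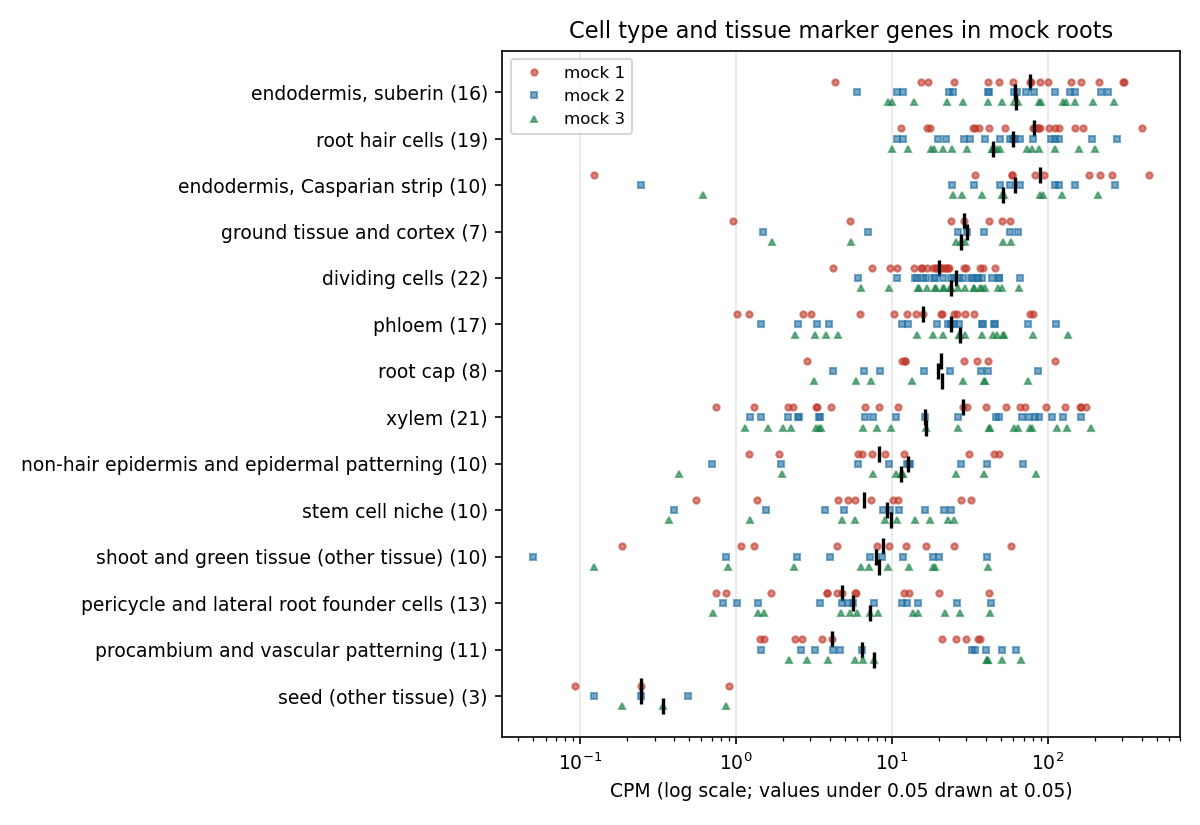
CPM on a log scale (x axis) of every measured gene of 14 cell type and tissue lists (y axis, number of genes in brackets), with 1 row of points for each mock library and a black bar at the median of the list. Endodermis and root hair genes have the highest medians, and the 3 seed genes lie below 1 CPM.

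Endodermis genes were among the strongest cell type genes. The Casparian strip list had the highest median of the 14 lists per length, 60.4 CPM per kb. CASP1 (AT2G36100), a scaffold protein of the strip, had 446, 270 and 211 CPM, or 342 CPM per kb, which was the highest of the 5 CASP genes, and CASP5 was the lowest of them at 45.0 CPM per kb. PER64, a peroxidase that polymerises the lignin of the strip, had 259, 149 and 123 CPM, and UCC1, a uclacyanin, had 217, 119 and 93.6 CPM. MYB36, the transcription factor that switches on these genes, had 34.2, 24.4 and 24.6 CPM. The receptor gene GSO1 was the most even member, with 59.3, 57.1 and 52.4 CPM. All 9 genes of the list over the filter were highest in mock 1, against 30.4% of all tested genes. Of the 9, 6 differed by 2-fold or more, against 2.37% of all genes.

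Suberin genes summed to 1684, 1298 and 1350 CPM, and root hair genes to 1721, 1405 and 1119 CPM, so the suberin sum was the larger in mock 3 alone. CYP86A1, which oxidises fatty acids for suberin, had 303, 242 and 267 CPM and 145 CPM per kb. ASFT, which adds ferulate, had 214, 149 and 150 CPM, and the transporter gene ABCG6 had 307, 219 and 196 CPM. The fatty acyl reductase genes FAR4 and FAR5 had means of 84.1 ± 10.3 and 126 ± 14.4 CPM. The regulators MYB92 and MYB93 were at 47.6 ± 10.7 and 47.1 ± 4.65 CPM, and MYB41 at 14.2 ± 2.59 CPM (SD, n = 3). Mock 1 was highest for 13 of 16 genes, against 30.4% of all tested genes, but none of them was 1.5-fold above both other libraries. Of the 16 only FAR1, with 4.32, 5.99 and 9.43 CPM, differed by 2-fold or more, against 2.37% of all tested genes.

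ESB1, a dirigent-domain protein of the Casparian strip, was listed at 0.123, 0.244 and 0.616 CPM. Its exons share 84.3% of their bases with another gene model, and this went with low values or missing rows in general. Of gene models that share no exon base, 73.4% were in the table with a median of 17.2 CPM, and of models that share over 75%, 6.04% were in the table, with a median of 1.53 CPM. Listed genes outside the table with such overlap were ABCG2 (95.3% shared), CLE45 (94.8%), AMT1;1 (98.4%), MYC2 (98.5%) and MT1A (100%). MYB72 (74.0%) and HSP17.4 (70.9%) were also outside it, but of models that share above 50% to 75%, 46% were in the table. KCS2 (63.6%) was among those in it and was not low, with 41.3, 24.5 and 28.6 CPM. Listed names outside the table numbered 31 in all, and most of them are not among those named here for overlap. The part of the overlap was not tested for any of these listed genes. Their low values or missing rows should not be read as absence of the transcript.

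Root hair genes were detected throughout. All 19 listed genes were at 10 CPM or more in every library, against 58.0% of all genes in the table. Their sum was 1721, 1405 and 1119 CPM. PRP3, a proline-rich wall protein of hair cells, led with 404, 279 and 199 CPM and 241 CPM per kb. CSLD3, a cellulose synthase-like protein needed for tip growth, had 149, 193 and 159 CPM, and the expansin gene EXPA7 had 102, 59.8 and 44.0 CPM. Among the regulators, RHD6 had 16.8, 19.9 and 18.7 CPM, RSL4 17.5, 11.8 and 12.6 CPM, and RSL2 33.9, 22.3 and 17.9 CPM. Mock 1 was highest for 15 of the 19 genes, against 30.4% of all tested genes. By 2-fold or more, 2 of the 19 differed, against 2.37% of all tested genes.

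Genes of the epidermal pattern ranked 10 of the 14 lists by median CPM per kb, against 3 for root hair genes. WER, the MYB factor of non-hair cells, had 11.9, 12.5 and 11.7 CPM and its target GL2 had 31.1, 27.9 and 25.7 CPM. CPC, which moves into hair cells and opposes WER, had 9.07, 9.57 and 10.6 CPM, while its relatives TRY and ETC1 had means of 0.779 and 1.94 CPM. The bHLH partners GL3 and EGL3 were close to each other, at 10.6 ± 2.79 and 10.3 ± 3.46 CPM (SD, n = 3), with 3.92 and 3.95 CPM per kb. The receptor-like kinase gene SCM had 48.6, 69.2 and 84.4 CPM. WER and CPC had a highest over lowest of 1.06 and 1.16.

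Vascular genes were present for xylem, phloem and procambium. In the xylem list the proteases XCP1 and XCP2 had 161, 107 and 115 CPM and 177, 125 and 133 CPM, and ACL5, which makes thermospermine, had 164, 164 and 190 CPM. The secondary wall cellulose synthase genes CESA4, CESA7 and CESA8 had 79.8 ± 8.12, 65.1 ± 4.00 and 43.1 ± 3.11 CPM, with 21.2, 19.1 and 12.9 CPM per kb. Their master regulators were lower per length, with 2.21 CPM per kb for VND7, 1.03 for VND6 and 6.34 for MYB46. VND7 had 4.04, 3.45 and 3.51 CPM, VND6 had 1.296, 1.436 and 1.602 CPM, and MYB46 had 8.21, 7.61 and 7.98 CPM. These regulators had a highest over lowest of 1.15, 1.17 and 1.07.

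In the phloem list BAM3, a receptor kinase for CLE peptides in the protophloem, had 77.2, 113 and 134 CPM, and SUC2, the sucrose loader of companion cells, had 79.9, 74.4 and 80.3 CPM. Per length SUC2 came first at 38.2 CPM per kb, above BAM3 at 31.7 CPM per kb. The sieve element genes SEOR1 and SEOR2 had 33.7, 45.6 and 52.6 CPM and 29.6, 44.8 and 51.6 CPM. SUC2 was the exception in the list. The other 12 genes of the 13 over the filter were lowest in mock 1, against 53.8% of all tested genes. At least 1.5-fold below both other libraries were 7 of the 13, against 7.11% of all tested genes. The share was 14.2% in the decile of exon length that holds the list median (3178 bases) and 35.3% in the longest decile.

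Procambium genes followed the same order of libraries. HB-8, a homeodomain factor of early vascular cells, had 35.9, 50.9 and 50.8 CPM, LHW had 36.6, 62.8 and 67.8 CPM and its partner TMO5 had 29.99, 32.8 and 41.6 CPM. PXY, the receptor of the cambium, had 20.9, 34.2 and 41.0 CPM, while WOX4, its target, had 1.42, 1.44 and 2.19 CPM. SHR (AT4G37650), which is made in the stele and moves outwards to specify the endodermis, had 25.8, 40.2 and 40.7 CPM. All 6 genes over the filter were lowest in mock 1, against 53.8% of all tested genes. At least 1.5-fold below both others were 4 of the 6, against 7.11% of all genes. The share was 5.96% in the decile of exon length that holds the list median (2439.5 bases) and 35.3% in the longest decile.

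SCR, the partner of SHR in the ground tissue, was steadier, with 57.4, 64.5 and 58.3 CPM. Their cofactors JKD, MGP and NUC had 51.0, 57.3 and 51.8 CPM, 24.0, 26.4 and 27.7 CPM, and 28.8, 30.4 and 29.3 CPM. The widest of these 4 genes was MGP, with a highest over lowest of 1.15. CYCD6;1, the cyclin that SHR and SCR switch on in dividing ground tissue stem cells, was near the detection threshold at 0.956, 1.498 and 1.69 CPM. Per length SCR, JKD, MGP and NUC lay between 12.8 and 23.3 CPM per kb.

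The stem cell niche gave low but clear values. WOX5, the marker of the quiescent centre, had 4.54, 3.70 and 4.78 CPM, or 4.12 CPM per kb. The PLETHORA genes PLT1 and PLT2, master regulators of the meristem, had 10.95, 16.38 and 17.59 CPM and 5.77, 11.1 and 14.1 CPM, and their relative BBM had 5.24, 9.75 and 10.8 CPM. AGL42 was first of the list per length with 16.9 CPM per kb, at 27.1 ± 4.49 CPM (SD, n = 3). In the root cap, SMB had 12.1, 16.0 and 13.4 CPM and BRN1 had 11.6, 6.66 and 5.92 CPM. CEL5, a cellulase of shedding cap cells, had 111, 87.0 and 74.3 CPM. PLT1, PLT2, BBM and SMB were lowest in mock 1, and BRN1 and CEL5 were highest there. The niche list as a whole was divided. Of its 7 genes over the filter, 4 were highest in mock 1 and 3 were lowest, against 30.4% and 53.8% of all tested genes.

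Genes of dividing cells were detected throughout. All 22 listed genes reached 1 CPM in every library, against 87.3% of all genes in the table, and their sum was 461, 623 and 615 CPM. CDKB2;1, a kinase of the G2 to M transition, was highest per length among them with 34.6 CPM per kb and 45.5, 48.4 and 48.0 CPM. CYCB1;1 had 9.66, 14.5 and 14.6 CPM, KN, the syntaxin of the cell plate, 15.4, 18.7 and 21.6 CPM, and PCNA1, the sliding clamp of replication, 29.1, 33.1 and 33.4 CPM. Mock 1 was lowest for 20 of the 22 genes, against 53.8% of all tested genes, with a median log2 ratio to the mean of mock 2 and mock 3 of -0.42. None of the 22 differed by 2-fold or more, against 2.37% of all genes.

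Lateral root genes ranked 12 of the 14 lists by median CPM per kb. LBD16, which acts early in lateral root founder cells, had 12.8, 12.6 and 14.7 CPM, LBD29 had 4.47, 3.45 and 4.74 CPM and GATA23, the founder cell marker, had 1.67, 0.825 and 1.39 CPM. PLT3 had 20.2, 43.1 and 42.4 CPM, with PLT5 at 5.02 CPM on average. LRP1, a factor of the primordium, had 5.89, 14.6 and 22.0 CPM and the widest spread of the list, 3.52. SKP2B had 41.8, 26.1 and 27.4 CPM. LBD16 was even across the libraries, and mock 1 was lowest for PLT3, PLT5 and LRP1.

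Auxin perception and response genes were detected in the mock root. Of 35 listed genes of auxin perception and response, 34 reached 1 CPM in all libraries, against 87.3% of all genes, the exception being IAA29 with 0.648, 0.795 and 0.709 CPM. Among the 6 receptors, TIR1 (AT3G62980) was first per length with 44.7 CPM per kb and 99.7, 132 and 123 CPM. AFB2 followed with 36.6 CPM per kb and 105, 101 and 94.8 CPM, then AFB1 with 24.8, AFB5 with 20.4, AFB3 with 10.13 and AFB4 with 7.33 CPM per kb. In CPM the library ranges of TIR1 and AFB2 overlapped. The receptors act as subunits of a ubiquitin ligase, whose other parts ASK1, CUL1 and RBX1 had 246, 91.2 and 73.4 CPM per kb and varied by no more than 1.15-fold.

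Repressors and activators of the auxin response covered a wide range. Of the Aux/IAA repressors, IAA9 and IAA16 led with 168 and 142 CPM per kb, and IAA9 had 321, 369 and 388 CPM. IAA14, which controls lateral root initiation, was the steadiest gene of the list with 14.2, 14.5 and 14.4 CPM, and the fast auxin-induced genes IAA1 and IAA19 had means of 7.08 ± 0.698 and 6.84 ± 0.602 CPM. Of the response factors, ARF7 and ARF19, which act with IAA14, had 75.1, 97.2 and 90.6 CPM and 28.8, 49.5 and 45.4 CPM. ARF5 had 19.8, 41.3 and 46.4 CPM and ARF6 41.2, 86.1 and 78.5 CPM. These last 2 were the only ones of the 34 list members over the filter that differed by 2-fold or more, against 2.37% of all tested genes. All ARF genes named here were lowest in mock 1, and their exon lengths run from 3615 to 4432 bases.

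Among auxin transport genes ABCB4 was first per length with 83.1 CPM per kb, and it had 376, 440 and 441 CPM. Of the PIN efflux carriers, PIN2, the carrier of epidermis and cortex, was first per length with 49.98 CPM per kb and 135, 184 and 148 CPM. PIN3 had 25.9 CPM per kb, PIN7 14.8 and PIN4 12.8 CPM per kb, whereas PIN6 was listed at 0.0617, 0.0917 and 0.123 CPM. The influx carrier AUX1 had 135, 172 and 150 CPM and 53.6 CPM per kb, close to PIN2 in each library. Mock 1 was lowest for 13 of the 15 transport genes over the filter, against 53.8% of all tested genes. These genes have a median exon length of 2751 bases, and their median log2 ratio of mock 1 to the mean of the other libraries was -0.29, or -0.06 relative to genes of the same decile of length.

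Nutrient transporters were led by genes of nitrate transport. NRT1.5, which loads nitrate into the xylem, had 963, 817 and 968 CPM and 413 CPM per kb, the highest of the mineral list per length. NRT1.1, the dual-affinity transporter and sensor, had 758, 518 and 525 CPM, while the inducible high-affinity gene NRT2.1 had 2.71, 2.35 and 2.19 CPM. PHT1;1 and PHO1, for phosphate uptake and its loading into the xylem, had means of 313 ± 85.5 and 469 ± 61.5 CPM. IRT1, the iron transporter, had 95.1, 53.1 and 44.0 CPM, and HAK5, the high-affinity potassium carrier, 4.72, 7.67 and 13.2 CPM. IRT1, its partner reductase FRO2 and HAK5 were the 3 of 25 genes with a 2-fold spread or more, against 2.37% of all tested genes. IRT1 and FRO2 were highest in mock 1 and HAK5 was highest in mock 3.

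The proton pumps that drive this uptake were abundant. AHA2, the main plasma membrane pump of the root, had 2329, 1814 and 1754 CPM and 532 CPM per kb, and AHA1 followed with 618, 664 and 675 CPM and 143 CPM per kb. AHA7, of the epidermis, had 65.2 ± 20.2 CPM and AHA3, of the phloem, 36.0 ± 9.90 CPM (SD, n = 3). The vacuolar pumps AVP1 and VHA-A had 252 and 225 CPM per kb. AHA2 and AHA7 were highest in mock 1 and AHA3 was lowest there.

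Genes known to respond to hypoxia, heat and nutrient shortage were also read. The hypoxia genes ADH1 and HB1 had 5.12, 6.02 and 7.73 CPM and 5.31, 7.40 and 8.87 CPM. The heat-inducible genes HSP17.6II and HSP17.6A stood at means of 0.256 and 0.574 CPM, and HSP101 at 18.6 ± 0.904 CPM (SD, n = 3). The phosphate starvation transcript IPS1 had 4.04, 4.37 and 5.98 CPM and SPX3 had 1.88, 2.08 and 2.46 CPM. The bHLH genes of iron deficiency BHLH38 and BHLH100 were below 1 CPM in all libraries. The alternative oxidase gene AOX1A had 92.9, 84.5 and 91.0 CPM. The lists as a whole had no common order, with sums of 389, 378 and 409 CPM for hypoxia, 135, 106 and 118 CPM for small heat shock proteins and 655, 676 and 783 CPM for phosphate starvation.

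Further function lists covered walls, metal binding and translation. Of the cell wall list, EXT3, a wall extensin, had 1281, 1404 and 1344 CPM and CESA1, of the primary wall cellulose synthase, had 563.6, 671.8 and 577.0 CPM. FLA9, a fasciclin-like protein, had 728.8, 518.7 and 392.7 CPM, and 3 of the 29 genes over the filter differed by 2-fold or more, against 2.37% of all genes. Metallothioneins bind metal ions in the cell. MT1C and MT2B had 988 and 885 CPM per kb, while MT2A and MT3 had 28.5 and 31.3 CPM per kb. In the translation list LOS1, an elongation factor, had 838, 1214 and 1060 CPM and PAB2, a poly(A) binding protein, 893, 1027 and 1015 CPM, and mock 1 was lowest for 7 of 9 genes, against 53.8% of all tested genes.

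The jasmonate list had 14 of 16 measured genes at 1 CPM or more in every library, close to the 87.3% of all genes. JAZ1, a repressor of the jasmonate response, had 118.5, 112 and 127 CPM, AOC4, an enzyme of jasmonate synthesis, had 109, 115 and 111 CPM, and none of the 10 genes over the filter differed by 2-fold or more, against 2.37% of all genes. Of the mitochondrial dysfunction list, OM66 had 17.8, 29.6 and 38.6 CPM and was 1 of 2 genes among 8 with a 2-fold spread, against 2.37% of all genes. ANAC017, its upstream regulator, had 77.7, 77.4 and 81.6 CPM. In the phosphate list UBC24 (PHO2), which limits phosphate uptake, had 89.3, 168.9 and 194.6 CPM. It was the 1 gene of 15 with a 2-fold spread, against 2.37% of all genes.

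Of 18 commonly used reference genes 0 differed by 2-fold or more, against 2.37% of all genes, the widest being TUB2 with a highest over lowest of 1.32. GAPC2 had 1371, 1411 and 1384 CPM and the narrowest spread, 1.03. PP2AA3 had 83.7, 92.2 and 84.3 CPM, and UBQ10 had 2087, 1616 and 1753 CPM. ACT2 and ACT8, the actins of vegetative tissue, had means of 1413 ± 172 and 1175 ± 143 CPM, and ACT7, which responds to hormones, 391 ± 39.4 CPM.

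Mock 1 stood apart from the other libraries. Across the 15299 genes, the correlation of log2 CPM was 0.994 between mock 2 and mock 3, and 0.974 and 0.971 between mock 1 and each of them. Between mock 2 and mock 3, 7 genes differed by 2-fold or more, against 196 and 312 in the pairs with mock 1. Of the 362 genes with a 2-fold spread, mock 1 was lowest in 280 and highest in 81. Mock 1 was at least 1.5-fold below both others in 1088 genes (7.11%) and at least 1.5-fold above both in 242 genes (1.58%). Mock 2 was at least 1.5-fold above both others in 0 genes (0%). Mock 3, whose treatment field differs from its title, was at least 1.5-fold above both others in 55 genes (0.36%).

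The position of mock 1 moved with the length of the transcript. In the shortest decile of genes (median 850 bases of exon) the median log2 ratio of mock 1 to the mean of mock 2 and mock 3 was 0.05, and in the longest decile (median 4004 bases) it was -0.51. Mock 1 was at least 1.5-fold below both others in 0.916% of the shortest and 35.3% of the longest genes. Over 15269 genes with a length the Pearson correlation of this ratio with log2 exon length was -0.45, and that of mock 3 over mock 2 was -0.15. These correlations are across genes of the same 3 libraries and carry no test.

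Cell type lists were therefore also compared with genes of their own length. This comparison was chosen after seeing the data. The median log2 ratio of mock 1 was 0.89 for the Casparian strip list and 0.83 relative to all genes of the same decile of exon length. For aquaporins it was 0.74 and 0.73, and for root hair genes 0.51 and 0.58. The phloem list went from -0.70 to -0.27, the procambium list from -0.73 to -0.42 and the dividing cell list from -0.42 to -0.34. The median of all genes was -0.10. The phloem list had a median exon length of 3178 bases, against 1852 bases for all genes over the filter, and the part of length in its values was not tested beyond this.

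**Figure D5:**
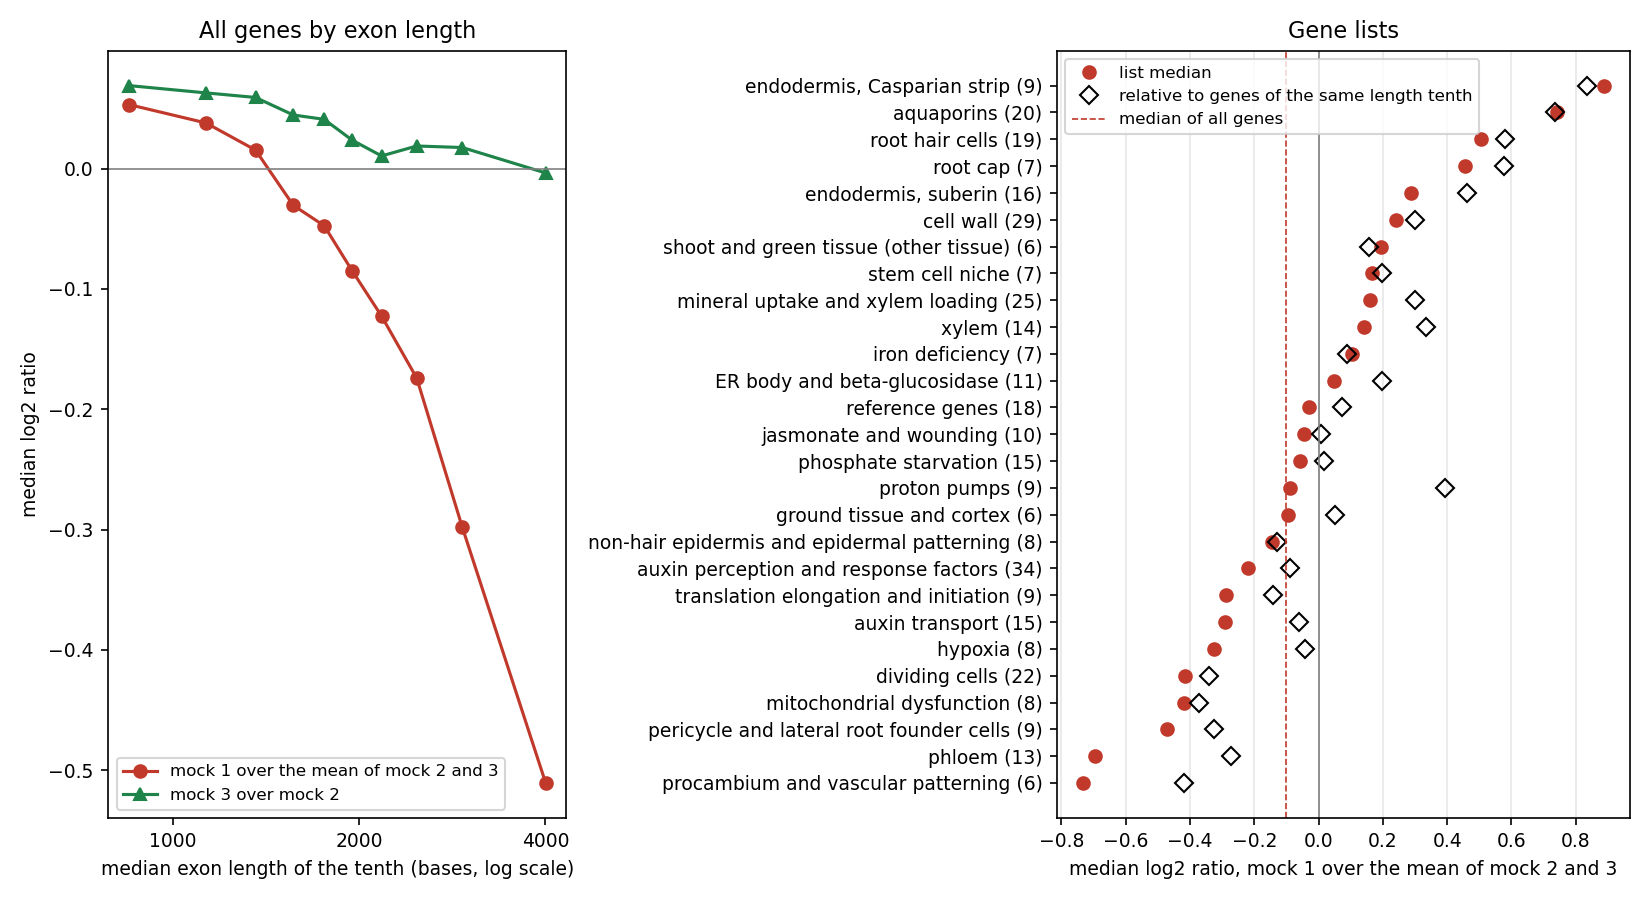
Left, median log2 ratio (y axis) of mock 1 to the mean of mock 2 and 3 and of mock 3 to mock 2 in deciles of genes by exon length (x axis, bases on a log scale). Right, the median log2 ratio of mock 1 (x axis) in each list with at least 5 genes over the filter (y axis, number of genes in brackets), as filled circles, and relative to genes of the same length as open diamonds, with 0.89 for the Casparian strip list and -0.70 for the phloem list.

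Aquaporins carried the largest difference in amount between the libraries. The 21 listed genes summed to 30482 CPM in mock 1, 18825 CPM in mock 2 and 16212 CPM in mock 3. Mock 1 was highest for 19 of the 20 genes over the filter, against 30.4% of all tested genes. It was at least 1.5-fold above both others for 11 of the 20, against 1.58% of all genes. PIP1;1 had 2604, 1449 and 1340 CPM, TIP2;2 had 2150, 1295 and 1104 CPM and TIP2;3 had 1024, 527 and 451 CPM. PIP2;8 was the exception, with 10.09, 17.15 and 19.5 CPM, and NIP5;1, a boron channel, was nearly even with 87.2, 78.1 and 77.9 CPM.

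Several of the single genes with the widest spread were peroxidases or beta-glucosidases. The widest with a mean of at least 10 CPM was AT3G28510, a P-loop ATPase family gene, with 4.10, 15.04 and 43.0 CPM. BGLU34 and BGLU35, beta-glucosidases of the root, had 283, 92.6 and 65.5 CPM and 249, 80.0 and 59.9 CPM. Both were highest in mock 1, and reads may be shared between them as related copies. The peroxidase genes AT4G08780, AT2G18150, AT4G36430 and AT5G06730 ran the other way, with AT4G36430 at 29.8, 70.1 and 114 CPM. AT1G67120, which encodes a midasin-like protein and has exons of 16614 bases in total, had 17.62, 64.8 and 62.8 CPM. AT1G33790, a jacalin lectin gene, and AT3G49190, a WSD1-like acyltransferase gene, complete the 10 widest, with a highest over lowest of 3.84 and 3.77.

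Of 54 peroxidase-annotated genes over the filter, 12 differed by 2-fold or more, against 2.37% of all genes. Of the 12, 5 were highest in mock 1 and lowest in mock 3, and 7 were lowest in mock 1 and highest in mock 3. In all 12 the value of mock 2 lay between those of the others. Other classes with many wide genes were jacalin or mannose-binding lectins with 5 of 16, expansins with 3 of 17 and lipid transfer genes with 7 of 43. Of the last 7 genes, 3 were highest in mock 1 and 4 highest in mock 3. AT5G46890, a lipid transfer gene, had 806, 500 and 364 CPM. The part of the label of mock 3 in this order was not tested.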

How the data were processed

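RNA of mock-treated wild type roots was sequenced as poly(A) RNA in 3 libraries. The authors trimmed reads, aligned them, counted reads per gene with HTSeq and normalised with edgeR, and deposited 1 table of log2 values for 12 libraries. The paper names STAR on TAIR10 with Araport11 as aligner, and the submitters' processing notes name HISAT2, with CASAVA 1.4, so the aligner is uncertain. Other columns, 9 in number, were not used here, and no column lacked a sample (0). Values were taken out of log2 as 2 to the power of x minus 1, and divided by the library total times 1000000 to give CPM. Whole reads per gene could not be recovered from the normalised values, so no counting interval is given, and n = 3 limits the precision. Reads of near-identical genes and of overlapping gene models are uncertain. Names, exon lengths and promoters came from RefSeq (TAIR10.1), where 20694 of 20814 rows matched. No group comparison or test was made (0 groups were tested), so levels are described with mean, SD and values per library. Of 482 listed names in 30 lists, 422 were in the table, 31 were not, and 29 had no locus matched by symbol. Annotation classes were set by key words in the RefSeq product, or in the RefSeq note for ribosomal proteins and transcription factors. By its key words the aquaporin class lacks 2 genes of the aquaporin list (PIP2;3 and TIP2;1).

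The rule for named genes took the first 20 by CPM and by CPM per kb, the 4 highest and the lowest of each list, the 10 with the widest spread and a mean of at least 10 CPM, and the first 5 transcription factors. Not all of these are described in the text, and genes named beyond the rule were chosen after their values were seen, as were the classes described for their count of wide genes. The members and lists were chosen with earlier results of these data known. The spread and the scaling were tested on simulated data, and scripts ran in Python 3.11.15 with pandas 2.3.3 and numpy 2.4.6. Leaving out each library, other thresholds, other scaling and CPM per kb were tried as alternatives.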

Additional observations from a re-analysis of the deposited data

How the results depend on the processing

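No paired analysis was possible because only 1 group was used and no result came from a test. The number of genes at 1 CPM in all libraries (18168) ranged from 18211 to 18487 when 1 library was left out, and the share of the 100 most abundant genes (15.1%) from 14.5% to 15.5%. With other thresholds the first ran from 14673 genes at 5 CPM to 20656 above 0. A gene has fewer libraries to pass when 1 is left out, so the number of genes at 1 CPM cannot fall. The number of genes with a 2-fold spread depended most on the setting. It was 362, and 8 to 306 with 1 library left out (8 without mock 1, 183 without mock 3). The ratio of a gene cannot rise with 1 library fewer, so the direction of this change, though not its size, was largely built in. The number with a 2-fold spread was 589 with a mean of at least 1 CPM, 176 with at least 20 CPM, 661 with no filter and 236 with a pseudocount of 2 CPM. Relative to genes of the same decile of exon length, an alternative chosen after seeing the data, it was 194. In the same alternative the median log2 ratio of mock 1 in the ground tissue list changed sign, from -0.0964 to 0.0496. A further 13 of 28 lists moved. Of these, the proton pumps (-0.0876 to 0.394) and the reference genes (-0.0307 to 0.0721) also changed sign. The jasmonate (-0.0448 to 0.00898) and phosphate starvation (-0.0579 to 0.0161) lists changed sign too, but by amounts counted as the same. With n = 3, leaving out 1 library cannot move a mean by 1 SD, so for class shares and list sums this says nothing of stability. The aquaporin share was 1.72% without mock 1, against 2.14%. Without mock 3 the root hair sum (1563 CPM) was above the suberin sum (1491 CPM). CPM per kb in place of CPM moved 20 of 23 class shares, as its construction weights short genes. By median CPM per kb in place of summed CPM, 4 of 14 cell type lists changed rank by over 1.5 times. Depth limits could not be set without reads per gene.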
